A study of Homo sapiens with 30 samples.

Results

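The 46 genes described here are a list of named DNA replication genes (24) and mitosis genes (22), chosen by symbol, and all 46 were found in each of 3 count tables that hold 23261 or 23262 genes. All were measured in Rh30, a human cell line of alveolar rhabdomyosarcoma in which the fusion gene PAX3-FOXO1 encodes an aberrant transcription factor. In the time course, a line with the FKBP degradation tag on PAX3-FOXO1 and a line with the tag on FOXO1 were kept in DMSO or given 500 nM dTAG, a small molecule that sends FKBP-tagged proteins to the proteasome, for 2, 6, 24 or 72 h. Another set compared parental Rh30 cells with the PAX3-FOXO1-FKBP clones 4, 10, 11 and 12, each labelled as DMSO treated. There were 30 samples in 15 groups of 2. Each clone is 1 clonal line, so a clone's difference from parental cells belongs to that clone, and the time-course line is not named as one of these clones in the sources used here. Separate cultures are not stated for the 2 samples of a group, so the spread behind each p-value may be technical only.

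A cell that divides copies its DNA in S phase and separates the copies in mitosis. Replication genes are switched on around the start of S phase by the E2F transcription factors. Most mitosis genes peak later, in G2 and mitosis. The complexes that repress or activate them at different cycle stages, DREAM, B-MYB and FOXM1, act through a promoter element called the CHR (cell cycle genes homology region). NF-Y acts through CCAAT boxes. Amounts of both groups of mRNA in a bulk sample follow the share of cycling cells, and fewer cycling cells cannot be told apart here from less of these mRNAs per cell.

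The promoters of both sets are shown first because the sets differ in how often these elements occur. RefSeq windows of 250 bases before the transcription start (GRCh38.p14) were matched for 22 of 24 replication genes and 18 of 22 mitosis genes. The letters TTTGAA or TTCGAA (CHR), on either strand, were in 10 of the 18 mitosis promoters (55.6%) and in 2 of the 22 replication promoters (9.09%), beside 14.3% of all 35116 promoters. CCAAT was in 16 mitosis promoters (88.9%), 15 replication promoters (68.2%) and 32.0% of all. The E2F words TTTCCCGC, TTTGGCGC, TTTCGCGC and TTTGCCGC were in 11 replication promoters, 2 mitosis promoters (11.1%) and 2.79% of all. No letters of one of these motifs are shared with another in the windows printed. These matches are letters in a window and not measured binding sites. A replication and a mitosis pair that the results below turn on are given, 5′ to 3′ on the gene's own strand, with all matches in capitals: MCM7 (chr7:100101398-100101647, minus strand) and RFC3 (chr13:33817899-33818148, plus strand), then CDK1 (chr10:60778081-60778330, plus strand) and TOP2A (chr17:40417897-40418146, minus strand).
MCM7: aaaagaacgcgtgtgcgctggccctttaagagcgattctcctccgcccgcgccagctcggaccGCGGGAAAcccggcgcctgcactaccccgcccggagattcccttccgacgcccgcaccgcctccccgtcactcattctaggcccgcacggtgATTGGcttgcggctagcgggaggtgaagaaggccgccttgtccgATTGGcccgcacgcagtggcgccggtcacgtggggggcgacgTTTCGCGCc
RFC3: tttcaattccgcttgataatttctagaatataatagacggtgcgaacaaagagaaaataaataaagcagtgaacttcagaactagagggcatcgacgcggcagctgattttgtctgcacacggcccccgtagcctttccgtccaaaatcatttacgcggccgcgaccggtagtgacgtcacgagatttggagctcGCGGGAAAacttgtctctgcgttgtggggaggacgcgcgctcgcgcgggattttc
CDK1: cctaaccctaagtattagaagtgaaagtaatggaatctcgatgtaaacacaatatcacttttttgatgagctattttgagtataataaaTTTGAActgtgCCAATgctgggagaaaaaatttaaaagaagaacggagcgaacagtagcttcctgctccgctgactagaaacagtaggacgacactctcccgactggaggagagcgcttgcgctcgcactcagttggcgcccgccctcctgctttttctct
TOP2A: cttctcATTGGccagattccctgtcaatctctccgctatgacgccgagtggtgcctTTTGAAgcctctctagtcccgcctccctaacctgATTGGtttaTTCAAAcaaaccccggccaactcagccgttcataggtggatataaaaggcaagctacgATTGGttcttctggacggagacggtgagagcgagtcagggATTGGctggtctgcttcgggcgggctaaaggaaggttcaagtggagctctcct
MCM7 has E2F words and inverted CCAAT boxes, and RFC3 has a single E2F word. CDK1 carries a CHR followed by a CCAAT box, and TOP2A carries a CHR on each strand among 4 CCAAT boxes. The window of CENPE, the mitosis gene with the widest range below, held none of the 3 motifs.

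Total counts were 17746684 to 26834005 per library in the clone set and 25863451 to 30466960 per column in the time course, where the authors deposited 1 column for the 2 samples of each condition. The myogenic genes MYOD1, MYOG, DES, FGFR4 and CHRNA1 were present in every column. MYF5 was at 0 in every column, and MYF6 did not exceed 0.126 CPM (counts scaled to library size). All 46 members passed the filters on low counts in all 3 tables. The 2 parental libraries were much closer to each other (chi-square per degree of freedom 1.89 over genes) than the 2 libraries of any clone (15.0 to 55.1), and all 4 clone comparisons share these parental libraries. Across all genes with a known transcript, changes against parental cells followed GC content in all 8 clone libraries (Spearman's rho 0.41 to 0.64 over 12566 genes, which are not independent replicates), so a correction for GC content and length was also fitted, and the member calls it removed are named beside the calls.

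Per kilobase of transcript, RRM2, a subunit of ribonucleotide reductase that supplies the building blocks of DNA, had the highest level of the 46 in DMSO, at 202 CPM per kilobase in the PAX3-FOXO1-FKBP line and 203 in the FOXO1-FKBP line. The next levels in the PAX3-FOXO1-FKBP line were 150 for PCNA, the sliding clamp of DNA polymerases, 148 for TOP2A, which untangles DNA before mitosis, and 144 for the helicase subunit MCM7. The lowest was MCM10, at 11.9 in the PAX3-FOXO1-FKBP line, and in the FOXO1-FKBP line ORC1 (14.0) lay just under MCM10 (14.5). KIF11, a spindle motor, stood at 27.2 in the former line and 14.9 in the latter, and the catalytic subunit POLE at 28.6 and 15.3. Each of these levels comes from 1 pooled column, so their order carries no replicate error.

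In the PAX3-FOXO1-FKBP line, both sets stayed near their DMSO level for the first 24 h of dTAG and lay below it at 72 h. All times of a line are set against the same DMSO column. The mean log2 change of the replication set was 0.02, -0.03 and -0.03 at 2, 6 and 24 h and -0.24 at 72 h. The mitosis set had means of -0.06, 0.04 and 0.01, then -0.33. At 72 h, 23 of 24 replication genes and 19 of 22 mitosis genes were below DMSO, while 49.4% of all 12330 genes were. No member reached a 2-fold change at any time (0 of 46), where 0.649%, 1.84%, 3.11% and 6.5% of all genes did at 2, 6, 24 and 72 h. Scaling by library totals moved the median of all genes at 72 h by over 0.1, to -0.11, and gave -0.36 for the replication set and -0.44 for the mitosis set. After correction for GC content and length the values were -0.27 and -0.37. Before 72 h the sign of a mean near 0 depends on the scaling, as for the replication set at 2 h (-0.05 with library totals). For scale, the 2 libraries of a clone set group differed by 0.0057 to 0.17 in the mean of the replication set and by 0.0099 to 0.39 in that of the mitosis set. The 72 h difference of the replication set exceeded the largest of these differences, and that of the mitosis set did not, unless scaled by library totals. Without the correction, the largest mitosis difference is that of clone 12 (-0.65 and -0.26 against parental cells), and the next is that of clone 11 (-0.41 and -0.53). With both sides corrected, the 72 h mitosis value exceeded the clone 12 difference (-0.37 and -0.03). This scale is rough, as it sets single libraries of another set beside pooled columns. The mitosis set minus the replication set was -0.08, 0.08, 0.04 and -0.08 at the 4 times, all within the pooled SD of 0.14 between clone set libraries.

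**Figure D1:**
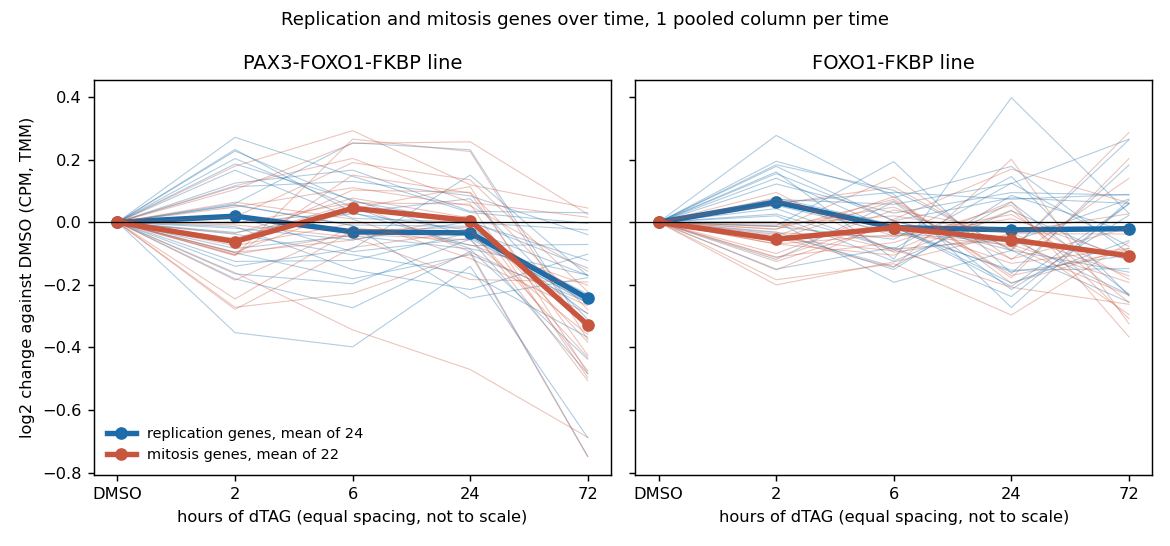
Log2 change against DMSO (y axis) at 2, 6, 24 and 72 h of dTAG (x axis, equal spacing) in the PAX3-FOXO1-FKBP line (left) and the FOXO1-FKBP line (right). Thin lines are single genes and thick lines are means of the 24 replication and 22 mitosis genes, with 1 pooled column per time. In the left panel both means drop at 72 h, to -0.24 and -0.33, and in the right panel they end at -0.02 and -0.11.

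The 72 h column also stood apart in its muscle genes. The summed level of 13 muscle markers was 5296 CPM in DMSO, 5552, 5841 and 8288 at 2, 6 and 24 h and 10908 at 72 h in the PAX3-FOXO1-FKBP line, and 4275 to 5105 CPM over the FOXO1-FKBP columns. The muscle markers were thus already higher at 24 h, and their part in the 72 h values was not tested. In the 2 h column of the PAX3-FOXO1-FKBP line, 14 of 19 B lineage genes had at least 10 counts, against 3 or 4 in the other 4 columns, with summed levels of 154 CPM against 21.8 to 104. Of 12 pan-leukocyte genes 11 had at least 10 counts there, and 4 in each other column of the line. The part of these counts in the 2 h values was not tested.

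Among the replication genes at 72 h, the lowest values were those of a nucleotide supply gene and a polymerase gene. TYMS, thymidylate synthase, had 4579 normalised counts in DMSO and 4039, 3788, 4292 and 2727 at 2, 6, 24 and 72 h (counts scaled to a common library size). Its log2 change at 72 h was -0.75, and the 72 h column was the lowest of the 5. TYMS overlaps a gene on the opposite strand, ENOSF1, and the sources used here do not give whether counting used strand. POLE, the catalytic subunit of the leading-strand polymerase, had 6438, 5041, 4885, 5839 and 3995 counts over the same columns, so it was low at 2 h and 6 h as well. The helicase subunit MCM2 went from 9995 to 7145 (-0.48), ORC1, part of the origin recognition complex, from 1617 to 1194 (-0.44), and the clamp loader subunit RFC3 from 2365 to 1832 (-0.37). The licensing factor CDT1 was above DMSO at 6 h (0.25) and 24 h (0.23) and below it at 72 h (-0.35). The other helicase subunits MCM3, MCM4, MCM5, MCM6 and MCM7 lay at -0.29, -0.15, -0.23, -0.26 and -0.10. CDC6, a helicase loader, and RFC2 were at their DMSO level (-0.02 and -0.00), and GINS1, a helicase cofactor, was the single replication gene above it (0.03). The other 10 replication genes lay between -0.31 (MCM10) and -0.04 (RFC4).

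Among the mitosis genes, MKI67, the antigen of proliferating cells that coats mitotic chromosomes, had 14220 counts in DMSO and 11780, 12150, 13280 and 8459 at 2, 6, 24 and 72 h. Its change at 72 h, -0.7494, was the largest of the 46, just beyond that of TYMS (-0.7475). After the GC and length correction MKI67 was at -0.61 and TYMS at -0.94, so their order was reversed. CENPE, the kinetochore motor that aligns chromosomes, had 5500, 4919, 4334, 3969 and 3415 counts and was lower at each later time. The checkpoint kinases BUB1 and TTK stood at -0.51 and -0.42 at 72 h, and the checkpoint protein BUB1B at -0.48. The spindle genes NUSAP1, KIF11, KIF20A and KIF23 were at -0.50, -0.48, -0.38 and -0.36. The mitotic kinase PLK1 was at -0.43 and CDK1, the kinase of mitotic entry, at -0.29, beside -0.32, -0.27 and -0.16 for its cyclins CCNB2, CCNB1 and CCNA2. CENPF, CENPA, TPX2, CDC20 and AURKB lay between -0.38 and -0.19. TOP2A (0.02), AURKA (0.03) and BIRC5 (0.05) were the 3 mitosis genes not below DMSO. With library totals all 24 and 22 genes were below, and after the GC and length correction AURKA was at -0.08, GINS1 at -0.01 and CDC6 at 0.02, on the other side of DMSO from before.

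A trend over log2 of hours plus 1 was fitted with edgeR's quasi-likelihood test to the 5 columns of each line. With 1 pooled column per time, the p-values rest on how far columns lie from a line and not on replicates. In the PAX3-FOXO1-FKBP line 1 of 46 members fell, beside 2.17% of all genes falling, and 0 rose, beside 2.4% of all genes rising. An unadjusted p under 0.05 was found for 3 members, and DESeq2 called 1, beside 8.0% of all genes. The member was CENPE, with a slope of -0.11 ± 0.02 (SE) per unit and an edgeR adjusted p of 0.0284. This call was lost when the DMSO, 2 h, 6 h or 72 h column was left out (adjusted p 0.073 to 0.26), with the slope still at -0.11 per unit in each case, and with time in hours (0.14). With the 24 h column left out, 4 members fell, CENPE, MKI67, POLE and TYMS, while the share of all genes called was 10.8%. A share of 1 in 46 is near the background.

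In the FOXO1-FKBP line, the sets moved little at any time. Means of the replication set were 0.06, -0.02, -0.02 and -0.02 at 2, 6, 24 and 72 h, and those of the mitosis set -0.05, -0.02, -0.06 and -0.11. With library totals both sets were above DMSO at 24 h (0.04 and 0.01). At 72 h, 12 of 24 replication genes and 17 of 22 mitosis genes were below DMSO, and 49.8% of all 11980 genes. No member changed 2-fold (0 of 46), where 0.0751%, 0.0584%, 0.2% and 0.409% of all genes did at the 4 times. Changes of all genes at 72 h followed length (rho -0.51) and GC content (rho 0.50) in this line, and after the correction for both the mitosis set was at -0.07. CENPE had 3669 counts in DMSO and 3230, 3346, 2987 and 3510 with dTAG, TYMS 3850, 3814, 3708, 4260 and 3271, and MKI67 9507, 9190, 8601, 10930 and 7591. CENPE thus lay lowest at 24 h, and TYMS and MKI67 were highest at 24 h and lowest at 72 h. The lowest value at 72 h was that of BUB1B (-0.37), and the highest that of AURKB, the kinase of the chromosomal passenger complex (0.29).

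No member had an edgeR call for trend in the FOXO1-FKBP line (0 of 46, background 0.0% of all genes; 1 unadjusted p under 0.05, that of CCNA2, and 0 calls by DESeq2). That count depends on 1 column: without 24 h, 6 members were called, with CCNA2, KIF11, BUB1B and MKI67 falling and CDT1 and AURKB rising, and 12.1% of all genes were called. A difference in trend between the lines was called by edgeR for 0 of 46 members, beside 2.1% of all genes. An unadjusted p under 0.05 was found for 1 member, and DESeq2 called 0, beside 4.46% of all genes. The slope of CENPE in the PAX3-FOXO1-FKBP line minus that in the FOXO1-FKBP line was -0.09 (adjusted p = 0.155), with an adjusted p of 0.0299 without the 24 h columns, when it was the single member called. The slope differences for TYMS, MKI67 and POLE were -0.07 (adjusted p = 0.659), -0.06 (0.761) and -0.10 (0.539). With all columns, no single member was thus called as differing between the lines.

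Against parental cells, the mitosis set was lower on average in all 4 clones, and the replication set was higher in clone 4. The mean log2 difference of the replication set was 0.33 ± 0.0040 (SD, n = 2), 0.09 ± 0.0049, -0.03 ± 0.12 and 0.07 ± 0.029 in clones 4, 10, 11 and 12. For the mitosis set it was -0.36 ± 0.0070, -0.41 ± 0.064, -0.47 ± 0.080 and -0.46 ± 0.28. The mitosis set lay below the replication set in all 8 clone libraries, with differences of -0.31 to -0.74, larger than the pooled SD of 0.14. After correction for GC content and length the differences of the means were -0.44, -0.19, -0.17 and -0.25 over the same clones, and -0.07 to -0.45 over the libraries, so some lay within the SD. The mitosis set then stood at -0.11, -0.14, -0.19 and -0.20, and the replication set at 0.33, 0.05, -0.02 and 0.05. The median of all genes was then 0.06 to 0.09 over the clone libraries, so these values are not centred on 0. Scaling by library totals leaves the difference between the sets as it is. It moves the median of all genes to between -0.27 and -0.04 over the clone libraries. With library totals the replication set turns to -0.03 and -0.15 in clones 10 and 12 and stays positive in clone 4 (0.16). Summed muscle markers were 4755 and 4765 CPM in parental cells and 6286 to 9369 CPM in clone libraries, with 11 of 13 at 10 counts or more in each. Summed pan-leukocyte markers were 117 and 120 CPM in parental cells, 314 and 370 in clone 4 (5 of 12 at 10 counts or more) and 83.9 to 238 in the other clones. Their part in these differences was not tested.

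**Figure D2:**
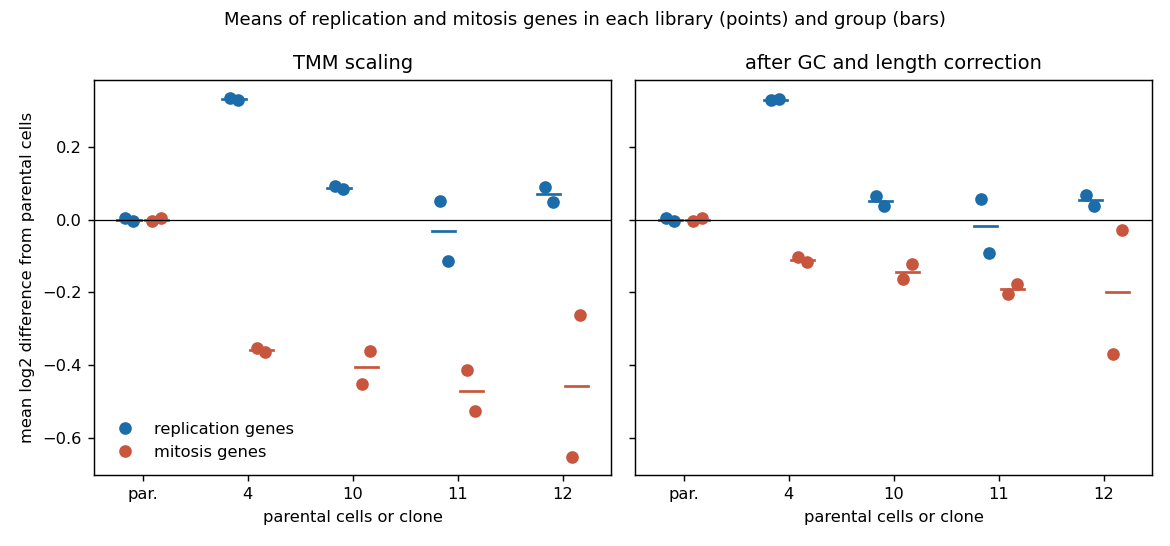
Mean log2 difference from the parental mean (y axis) of the replication set and the mitosis set in each library of parental cells and clones 4, 10, 11 and 12 (x axis), without (left) and with (right) correction for GC content and length; points are libraries and bars group means. The mitosis points lie between -0.65 and -0.26 on the left and between -0.37 and -0.03 on the right.

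edgeR's quasi-likelihood test (adjusted p under 0.05) called 26, 23, 30 and 29 of the 46 members in clones 4, 10, 11 and 12. In clone 4, 13 replication genes were higher and 1 lower, and 3 mitosis genes were higher and 9 lower, where 25.1% of all genes were higher and 22.3% lower. In clone 10 the counts were 7 and 4 for replication and 2 and 10 for mitosis, beside 27.8% and 24.2%. Clone 11 had 7 and 7 for replication and 4 and 12 for mitosis, beside 26.5% and 25.1%. Clone 12 had 9 and 6 and then 4 and 10, beside 27.8% and 24.7%. As shares, 40.9 to 54.5% of mitosis genes were lower in the clones, above the background in each, and 54.2% of replication genes were higher in clone 4, where 4.17% were lower. Leaving out either parental library lowered the totals to 18 in clone 4, 15 in clone 10, 21 or 22 in clone 11 and 17 or 18 in clone 12, and the share of all genes called to between 27.2% and 33.4%. With library totals, the calls for replication were 10 higher and 3 lower, 6 and 5, 4 and 10, and 6 and 8 in clones 4, 10, 11 and 12, and those for mitosis 1 and 10, 1 and 12, 3 and 14, and 0 and 11; over all genes they were 2494 and 3983, 3187 and 3948, 2599 and 4713, and 2646 and 4576.

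Of the helicase subunits, MCM2, MCM5 and MCM7 were called higher in all 4 clones. MCM2 had 6161 and 6112 normalised counts in parental cells. Clone 4 had 14290 and 12300, clone 10 had 15400 and 13100, clone 11 had 8597 and 8115, and clone 12 had 11320 and 9913. All 8 clone values lay above both parental values, with log2 differences of 1.12 ± 0.14 (SE), 1.22 ± 0.14, 0.45 ± 0.14 and 0.79 ± 0.14 and edgeR adjusted p-values of 0.000105 to 0.0189. After the correction MCM2 was at 0.77, 0.74, 0.11 and 0.44 and no longer called in clone 11 (adjusted p = 0.432), where it was not called with library totals either (0.234). MCM7 had 10390 and 10100 counts in parental cells and 13580 to 20710 in the clones, highest in clone 11 (0.96 ± 0.12). Its call in clone 10 was lost when a parental or a clone 10 library was left out (adjusted p 0.060 to 0.11), with no low-count filter (0.057) and after the correction. MCM5 had 3219 and 3240 counts in parental cells and 4761 to 6930 in the clones (0.63 to 0.96), with its clone 10 call also lost after the correction (adjusted p = 0.0956). MCM3 was higher in clones 4 (0.97), 10 (0.42) and 11 (0.35), but the calls in clones 10 and 11 were lost both after the correction (0.18 and 0.23) and with library totals. MCM4 was called in clone 11 only, with 4067 and 3148 counts against 6930 and 7089 in parental cells (-0.96 ± 0.15), and its difference among the 4 clones passed the edgeR test (adjusted p = 0.00113). MCM6 was called higher in clone 11 (0.35; not with library totals, 0.13) and, after the correction for GC content and length, in all 4 clones (0.28 to 0.75).

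The licensing factor CDT1 was higher in all 4 clones, by 0.58 to 0.89, but its corrected differences in clones 10 and 12 were 0.03 and 0.18 and were not called. CDC6 was higher in clones 4 (0.67) and 12 (0.40), CDC45, the helicase partner, in the same clones (0.60 and 0.76), and ORC1 in clones 4 (0.53) and 10 (0.52). The ORC1 call in clone 10 was lost without either parental library (adjusted p 0.058 and 0.064). GINS1, whose complex joins the helicase, was lower in clones 10, 11 and 12, at -0.39, -1.09 and -0.69. After the correction its value in clone 10 was positive (0.08), and it was called higher in clone 4 (0.60). GINS2 was called in no clone. MCM10 and POLA1, which start synthesis, were called lower in clone 11 (-0.58 and -0.60), and neither call was kept after the correction. MCM10 was then called higher in clones 10 (0.30) and 12 (0.51), and POLA1 in 1 clone. POLE was lower in clone 12 (-0.70 ± 0.20). With library totals, CDC6 in clone 12 and ORC1 in clone 4 were not called.

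The clamp gene was lower in 3 clones, and the subunits of its loader differed among themselves. PCNA had 5866 and 5818 counts in parental cells. Clone 10 had 2587 and 2893, clone 11 had 4724 and 3276, and clone 12 had 3261 and 3335, lower in all 3 (-1.09, -0.55 and -0.82). In clone 4 its libraries, 4704 and 6296, lay on both sides of the parental values. RFC3 was lower in all 4 clones, with 2197 and 2323 counts in parental cells and 986 to 1406 in the clone libraries (-0.83, -1.11, -0.87 and -1.13). It was the single replication gene called lower in all 4 both with and without the correction (corrected -0.27 to -0.60). RFC2, another subunit of the same loader, was higher in clones 4, 11 and 12, with 1873 and 1995 counts in parental cells and 4343 and 4550 in clone 11 (1.20 ± 0.13, adjusted p = 0.000124). RFC4 was called lower in clone 10 (-0.61), a call lost after the correction (-0.26, adjusted p = 0.0758). In nucleotide supply, TYMS was higher in clones 4, 10 and 12 (0.98, 0.78 and 0.52), RRM2 in clone 4 (0.38), and RRM1 was lower in clone 12 (-0.53). FEN1, the flap nuclease, was higher in clones 4 and 12 (0.49 and 0.42). After the correction the clone 12 calls of RRM1 (-0.21) and FEN1 (0.09) were lost, and RRM1 was called higher in clone 10 (0.27). With library totals the calls of RRM2, of FEN1 in both clones and of TYMS in clone 12 were lost. UHRF1, which brings DNA methylation to newly made DNA, was called higher in clone 4 (0.62) and lower in clones 11 and 12 (-0.80 and -0.41).

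**Figure D3:**
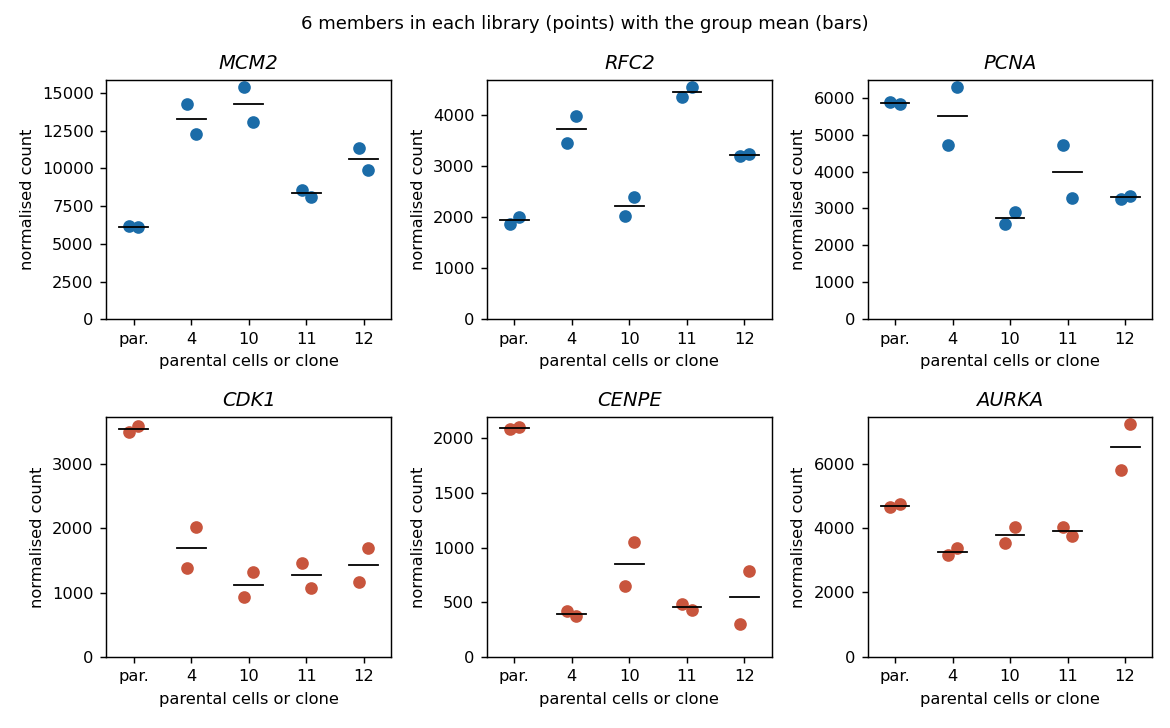
Normalised counts (y axis, from 0) of 6 members in each of the 10 libraries of parental cells and clones 4, 10, 11 and 12 (x axis); points are libraries and bars group means. All clone values of MCM2 lie above the parental values and all clone values of CDK1 and CENPE below them.

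Of the mitosis genes, 8 were called lower in all 4 clones: CDK1, CENPE, CENPF, KIF11, KIF23, TTK, NUSAP1 and TOP2A. CENPE had 2085 and 2105 counts in parental cells. Clone 4 had 415 and 377, clone 10 had 644 and 1051, clone 11 had 480 and 424, and clone 12 had 303 and 788. Its group means spanned 5.29-fold, the widest of the 46, with log2 differences of -2.40 ± 0.36, -1.31 ± 0.34, -2.21 ± 0.36 and -1.94 ± 0.35. CDK1, the kinase that drives entry into mitosis, had 3502 and 3598 counts in parental cells and 928 to 2015 in the clones (-1.07, -1.67, -1.49 and -1.31). KIF11, the motor that separates the spindle poles, had 2116 and 2166 counts in parental cells and 604 and 760 in clone 12 (-1.65 ± 0.19, adjusted p = 0.000111). NUSAP1, a spindle microtubule protein, had 5992 and 6025 counts in parental cells and 2486 to 3416 in the clones (-0.89 to -1.24). CENPF, a kinetochore protein, was at -0.82 to -1.58, TTK at -0.94 to -1.29, KIF23, a motor of cytokinesis, at -0.51 to -0.77, and TOP2A at -0.63 to -0.93. After the correction, CDK1 (-0.43 to -0.92) and NUSAP1 (-0.58 to -0.81) were called lower in all 4 clones, CENPE in clones 4, 11 and 12 (-1.52, -1.11 and -0.86) and TOP2A in none (-0.05 to -0.22). Single calls lost were those of CENPF in clone 4, KIF11 in clone 10, TTK in clone 11 and KIF23 in clone 12.

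Other mitosis genes were higher, but with either parental library left out, 0 mitosis genes were called higher in clones 4, 10 and 12 and 2 or 3 in clone 11. Calls over all genes fell in the same fits, to 1967 to 2413 higher of 14411 or 14424 genes in the 4 clones against 3562 to 3946 of 14175 with both libraries. PLK1 was called higher in all 4 clones, with 2550 and 2617 counts in parental cells and 3034 to 4811 in the clones (0.45 to 0.76), but in none after the correction (0.01 to 0.28). AURKB was higher in clones 4, 11 and 12 (0.46, 1.12 and 0.47), with 5100 and 6241 counts in clone 11 against 2517 and 2693 in parental cells. CDC20, which activates the anaphase-promoting complex, was higher in clones 4, 10 and 11 (0.55, 0.58 and 0.60) and called in none after the correction. BIRC5, a partner of AURKB, was higher in clone 12 (0.48). After the correction the clone 12 calls of AURKB (0.17) and BIRC5 (0.25) were lost, and with library totals AURKB and PLK1 were called in clone 11 only and BIRC5 in none. MKI67 was called lower in clone 11 (3302 and 3225 counts against 7815 and 7361 in parental cells, -1.22 ± 0.21), as was CCNA2 (2043 and 1615 against 4017 and 4192, -1.16 ± 0.14). Both calls were kept after the correction (-0.75 and -0.79), while CCNA2 was called lower in clone 10 too with library totals (-0.47) and higher in clones 4 and 12 after the correction (0.43 and 0.26). BUB1B was at -0.62 in clone 11, called before the correction and not after it (-0.22), and at -0.26 to -0.35 in the other clones. KIF20A was lower in clones 11 and 12 (-0.43 and -0.48), and its clone 12 call was lost without either parental library or without 1 of the clone 12 libraries (adjusted p 0.055 to 0.070). CCNB2 (-0.65) and the centromeric histone CENPA (-0.49) were lower in clone 10, the latter not after the correction (-0.28). After it CCNB2 was also called higher in 1 clone. AURKA, a kinase of the spindle poles, was lower in clone 4 (-0.52) and higher in clone 12 (0.47), and CCNB1 was higher in clone 11 (0.51) and lower in clone 12 (-0.43). With library totals the higher calls of AURKA and CCNB1 were lost, and after the correction the lower call of CCNB1 was. CCNB1 was then called higher in 3 clones. BUB1 and TPX2, a spindle assembly factor, were called in no clone, but after the correction BUB1 was called higher in clones 4, 10 and 11 (0.46 to 0.80) and TPX2 in clone 4 (0.30).

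**Figure D4:**
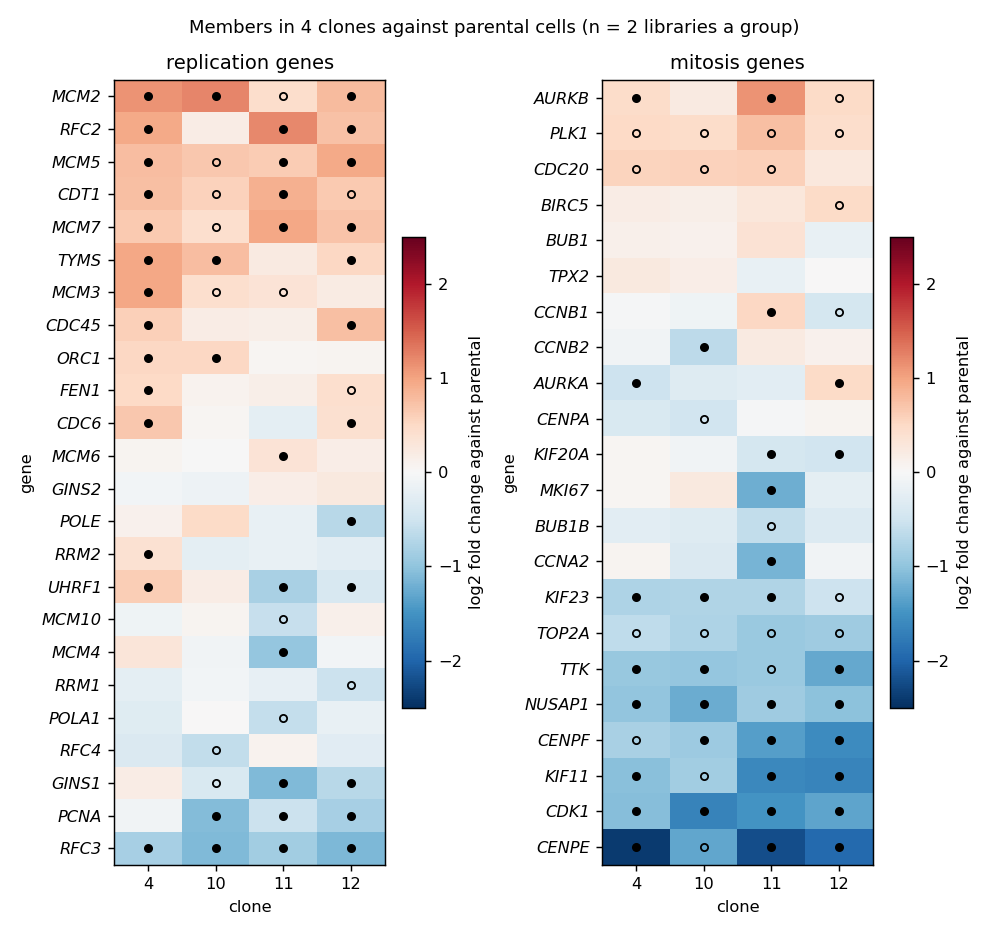
Log2 fold change against parental cells (colour) of the 24 replication genes (left) and 22 mitosis genes (right) in clones 4, 10, 11 and 12 (columns), genes ordered by their mean change. Circles mark calls at an edgeR adjusted p under 0.05, filled where the call was kept in the same direction after correction for GC content and length; 8 mitosis genes carry a circle in all 4 columns at the bottom right.

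The 2 sets also differ from each other in base composition, and the replication set lay near all genes. Median transcript GC content was 49.4% in the replication set, 43.2% in the mitosis set and 49.1% over all genes tested. Among the 46 members, change against parental cells followed GC content with a Spearman's rho of 0.82, 0.85, 0.73 and 0.78 in clones 4, 10, 11 and 12, and within the mitosis set with 0.83, 0.87, 0.78 and 0.83. After the correction rho was still 0.50, 0.41, 0.46 and 0.42 among the members, and 0.51, 0.58, 0.57 and 0.50 within the mitosis set. Over all genes it was then 0.02 to 0.05 in the clone libraries. Calls kept after the correction are thus not free of the GC trend among members. The points of the 4 clones share the parental libraries. CENPE (35.3% GC), CDK1 (37.0%) and KIF11 (38.3%) sit at the low end with decreases in all 4 clones, RFC3 (39.1%) and TOP2A (39.1%) beside them, and CDT1 (64.9%), MCM2 (58.1%), CDC20 (57.9%) and PLK1 (57.3%) sit at the high end with increases. With the correction, replication calls were 15 higher and 1 lower in clone 4 and mitosis calls 5 and 7, beside 28.8% and 18.8% of all genes. Clone 10 had 6 and 2, then 2 and 6 (background 27.8% and 20.1%), clone 11 had 5 and 5, then 4 and 9 (26.1% and 17.1%), and clone 12 had 10 and 5, then 2 and 7 (28.6% and 19.6%). Of the 9, 10, 12 and 10 mitosis genes called lower at first, 7, 6, 9 and 7 were also called lower after it.

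**Figure D5:**
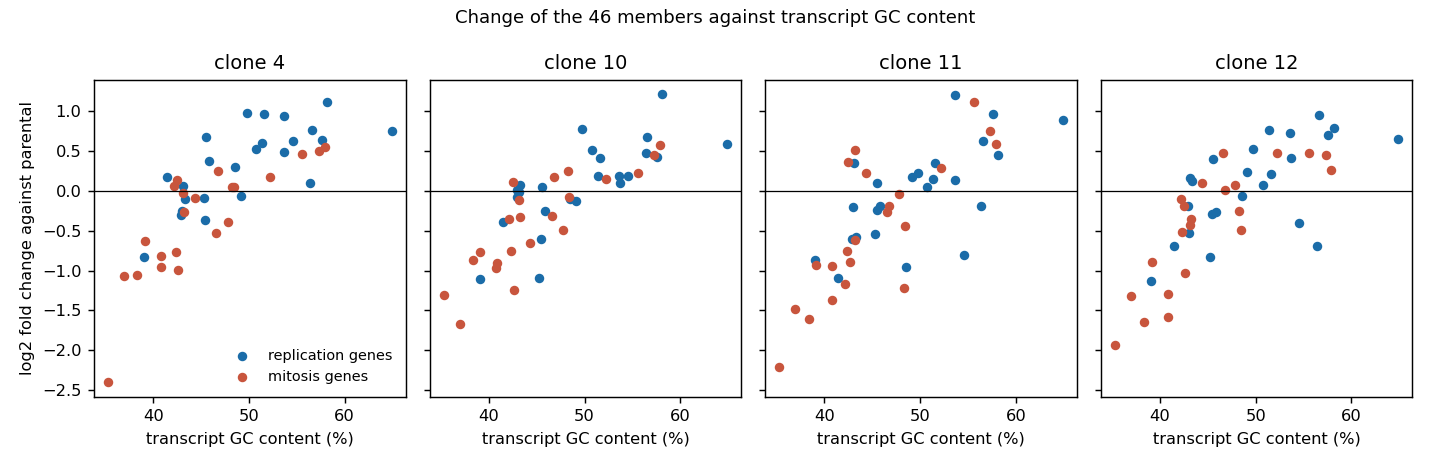
Log2 fold change against parental cells (y axis) of the 46 members against the GC content of their transcripts (x axis, percent) in clones 4, 10, 11 and 12, with replication and mitosis genes in separate colours. CENPE, at 35.3%, lies below the zero line in each panel.

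Over the 5 groups, 22 of 24 replication genes and 21 of 22 mitosis genes differed in edgeR's test, where 83.1% of all genes did. With the parental libraries left out, the 4 clones differed among themselves in 16 of 24 replication genes and 9 of 22 mitosis genes, beside 54.7% of all genes, and in 19 and 10 after the correction, beside 67.8%. GINS1 (adjusted p = 0.000540), UHRF1 (0.000291), CCNA2 (0.000807) and MCM4 (0.00113) had the lowest values. Of the 8 mitosis genes lower in every clone, CENPF and KIF11 differed among clones (0.0300 and 0.0163), and CENPE did not pass (0.0750), nor did CDK1 (0.215), KIF23 (0.409), TTK (0.488), NUSAP1 (0.368) and TOP2A (0.474).

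Other genes of the same processes, from lists drawn up by function, were counted in the same way. Of 56 further mitosis genes, 24, 27, 29 and 29 were lower and 13, 10, 6 and 5 higher in clones 4, 10, 11 and 12, with medians of -0.28, -0.42, -0.46 and -0.45, where 22.3%, 24.2%, 25.1% and 24.7% of all genes were lower and 25.1%, 27.8%, 26.5% and 27.8% higher. After the correction 14, 18, 14 and 22 of 53 were lower and 14, 5, 5 and 6 higher, with medians of -0.03, -0.17, -0.21 and -0.23, beside 18.8%, 20.1%, 17.1% and 19.6% of all genes lower. The spindle gene ASPM was at -2.25 in clone 11 and -2.65 in clone 12 (corrected -1.26 and -1.64), and the motor KIF14 at -2.28 and -1.96, while the condensin subunit NCAPD2 was at 1.52 in clone 4. Of 45 further replication genes, 13, 19, 18 and 15 were lower and 11, 5, 9 and 10 higher, with medians of -0.07, -0.29, -0.28 and -0.07. After the correction 7, 16, 15 and 9 of 43 were lower and 15, 8, 8 and 11 higher. Of all genes, 28.8%, 27.8%, 26.1% and 28.6% were then higher. In clone 4 these shares were 34.9% higher and 16.3% lower, beside 28.8% and 18.8% of all genes. The clone 4 median of 0.10 was near that of all genes (0.09). The origin recognition subunit ORC4 was at -1.26 and -1.24 in clones 4 and 10, the helicase-nuclease DNA2 at -1.13, -1.81 and -1.47 in clones 4, 11 and 12, and thymidine kinase TK1 at 0.89, 0.98 and 1.24 in clones 4, 10 and 12. Of 21 cell cycle regulators, 4, 2, 5 and 4 were higher and 7, 5, 13 and 11 lower. Shares called lower were 33.3%, 23.8%, 61.9% and 52.4%, beside 22.3%, 24.2%, 25.1% and 24.7% of all genes. Shares called higher were 19.0%, 9.52%, 23.8% and 19.0%, beside 25.1%, 27.8%, 26.5% and 27.8%. After the correction 6, 2, 1 and 2 were higher and 4, 6, 9 and 5 lower. Of all genes, 28.8%, 27.8%, 26.1% and 28.6% were then higher and 18.8%, 20.1%, 17.1% and 19.6% lower. FOXM1, which drives mitosis genes, was at 1.13 in clone 4. The DREAM subunit LIN54 was lower in all 4 clones (-0.91 to -1.11), but in clone 12 not after the correction (-0.15). RB1, the retinoblastoma protein that restrains E2F factors, was at -0.75 and -1.60 in clones 10 and 11 (corrected 0.01 and -0.71). The clone values of KIF14, NCAPD2, ORC4, DNA2, TK1 and FOXM1 are those before the correction. In the PAX3-FOXO1-FKBP time course 0 of the 122 genes of these 3 lists had an edgeR call for trend, beside 4.57% of all genes. An unadjusted p under 0.05 was found for 5, and DESeq2 called 1, E2F5, beside 8.0% of all genes. At 72 h 35 of 45, 45 of 56 and 18 of 21 were below DMSO, beside 49.4% of all genes. The regulator with the lowest p was E2F5, an E2F factor of the repressing kind, at -0.72 at 72 h (adjusted p = 0.0786), and FOXM1 stood at -0.52.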

How the data were processed

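RNA was sequenced from 30 samples of Rh30 cells. Trimmomatic 0.32, Bowtie2, Cuffdiff 2.1.1 and hg19 are listed in the submitters' processing notes, without their roles. Annotation and strand use are not given there. For the time course the authors deposited estimated counts, of which 74.4% in the PAX3-FOXO1-FKBP line and 72.8% in the FOXO1-FKBP line are not whole numbers, in 1 pooled column per condition per the file headers. For the clone set they deposited read counts per library. From each time-course table, 4 entries with repeated names were left out, as were 41 and 9 genes of these lines. Those genes had a 0 in 1 or more columns and at least 10 counts in each column above 0.

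The test was edgeR's quasi-likelihood F test (edgeR 4.0.16 in R 4.3.3) after TMM scaling, with p-values adjusted by Benjamini-Hochberg across the whole table and called under 0.05. The 10 clone set libraries were fitted with 1 mean per group (filterByExpr, minimum count 10, 5 residual degrees of freedom). Trends used time-course counts rounded to whole numbers, with a mean of at least 50, on log2 of hours plus 1 (3 residual degrees of freedom a line, 6 for both). The design had assumed counts per library, so times against DMSO are log2 CPM differences (prior count 2) with no test. Standard errors are the log2 change over the square root of F. GC content and length came from GENCODE v29 by symbol, and the correction is a loess fit (span 0.4). The code was tested on simulated data. Promoters are from RefSeq.

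Members and lists were chosen with earlier results of these data known. Genes given with errors and p-values come from the 8 called members of lowest p per set and comparison (3 where fewer passed), and from other lists the 4 called of lowest p (2 of lowest p where none passed). TMM scaling, library totals, DESeq2 1.42.0, low-count filters, a prior count of 0.5, hours, left-out libraries and times, a replicate block and length were varied as planned; GC content and the fit of the 4 clones alone were added after seeing the data.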

Additional observations from a re-analysis of the deposited data

Results flagged for a closer look

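Without the GC and length correction, 3 members were called higher than parental cells in 1 clone and lower in at least 1 other. For each, edgeR's test among the 4 clones, which does not use the parental libraries, found a difference. After the correction AURKA and UHRF1 were still called both ways, and so were GINS1, CCNA2 and CCNB2. CCNB1 was then called higher in 3 clones and lower in 0. AURKA, a kinase of the spindle poles, had 4662 and 4742 normalised counts in parental cells. Clone 4 had 3176 and 3369 (-0.52) and clone 12 had 5807 and 7251 (0.47), with an adjusted p of 0.00183 among clones. The clone 4 call was lost without either parental library (adjusted p 0.060 and 0.071), and so was the clone 12 call, since 0 mitosis genes were then called higher in that clone. CCNB1, the cyclin partner of CDK1, had 4674 and 4783 counts in parental cells, 6772 and 6679 in clone 11 (0.51) and 3220 and 3785 in clone 12 (-0.43), with 0.00276 among clones, and the clone 12 value was not called after the GC and length correction (-0.20, adjusted p = 0.0904). UHRF1, which brings DNA methylation to newly made DNA, had 11540 and 11320 counts in parental cells. Clone 4 had 19850 and 15320 (0.62), clone 11 had 6909 and 6206 (-0.80) and clone 12 had 8660 and 8596 (-0.41), with 0.000291 among clones.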

How the results depend on the processing

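Numbers of members called kept within 1.5 times under library totals, DESeq2, no low-count filter and the GC and length correction in the 4 clone comparisons, and under the replicate block in clones 4, 10 and 11. Leaving out 1 library at a time gave 18 to 29 calls in clone 4, 15 to 28 in clone 10, 21 to 30 in clone 11, 17 to 33 in clone 12 and 34 to 44 over the 5 groups. The 4 clones alone gave 25. Trends gave 0 to 4 calls in the PAX3-FOXO1-FKBP line, 0 to 6 in the FOXO1-FKBP line and 0 to 1 for the difference with 1 time left out, and 0 in the PAX3-FOXO1-FKBP line with time in hours. The slope of BUB1B in the FOXO1-FKBP line, -0.037 and not called, was -0.0596 without 24 h and 0.0124 without 72 h. The cause was not tested.

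Library totals moved the replication set to -0.36 and -0.0819 at 72 h in the PAX3-FOXO1-FKBP and FOXO1-FKBP lines and to 0.16, -0.0295, -0.26 and -0.15 in clones 4, 10, 11 and 12, and the mitosis set to -0.54, -0.70 and -0.68 in clones 4, 11 and 12. The GC and length correction, added after seeing the data, moved the mitosis set to -0.11, -0.14, -0.19 and -0.20 in clones 4, 10, 11 and 12 and its difference from the replication set to -0.44, -0.19, -0.17 and -0.25. Before 72 h, library totals moved the replication set from 0.02 to -0.05 at 2 h in the PAX3-FOXO1-FKBP line and from -0.02 to 0.04 at 24 h in the FOXO1-FKBP line. The other set means moved by less than the SD between libraries under these 2 settings.

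With the replicate number as a block, 27, 26 and 29 members were called in clones 4, 10 and 11 and 41 over the groups. The shares of all genes called in clones 4, 10 and 11 were then 50.1%, 54.8% and 54.7%, against 47.4%, 52.0% and 51.6% without the block. The labels do not say that a number pairs libraries, deviations of same-numbered libraries correlated at 0.009 to 0.36 between groups, and clone 12 shares no number with the others. With 1 library left in a group, that library is assumed to vary like the other groups.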
